A study of Mus musculus with 6 samples.

Results

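The AP-1 family of transcription factors was followed in fibroblasts sorted from the intestine of mouse pups that lack eosinophils and of wild-type pups. The 9 genes examined, Fos, Fosb, Fosl1, Fosl2, Jun, Junb, Jund, Atf3 and Maff, were taken by name from a deposited table of 15238 genes. Of these, 8 are in the table. Fosl1 is not in it and is treated as not measured. RNA was sequenced in bulk from 3 libraries of DdblGata1 pups (replicates 4, 9 and 10) and 3 libraries of wild-type pups (replicates 1, 3 and 4). All pups were Balb/c and at postnatal day 9. DdblGata1 mice carry a germline deletion in the Gata1 promoter that leaves them without eosinophils, and the deletion is present in the fibroblasts too. The labels give both genotypes the same preparation: the epithelium was shaken off in EDTA at 37 °C, the rest was digested repeatedly with Liberase and DNase I at the same temperature, and cells positive for podoplanin but not for CD45, EpCAM or CD31 were sorted. The series title frames the comparison within the question of how eosinophils bear on smooth muscle differentiation in the villi.

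AP-1 is a dimer of basic leucine zipper proteins. Jun proteins pair with each other or with Fos proteins, and the dimers bind short palindromic DNA sites in promoters and enhancers. Fos, Fosb, Jun, Junb and Atf3 are classical immediate early genes, whose transcription starts within minutes of growth factor, cytokine or stress signals without new protein synthesis, and whose messages are short-lived. Enzymatic digestion of a tissue at body temperature is itself a known inducer of these genes, and digestion was part of the protocol in both genotypes. Its part in the values was not tested.

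The libraries held 28110454 to 31210800 estimated counts over all genes. Summed over 8 fibroblast markers, among them Pdgfra, Pdpn and Col1a1, the level was 105783 to 146502 CPM (counts scaled to library size) in DdblGata1 libraries and 107510 to 152822 CPM in wild-type libraries. Epx, the defining eosinophil peroxidase gene, had 0 estimated counts in all 6 libraries. Of the other 4 eosinophil markers, Ccr3 alone is in the table, with 5 to 32 estimated counts. It was at 0.165 to 0.258 CPM in DdblGata1 and 0.36 to 1.1 CPM in wild-type libraries (log2 fold change -1.65, edgeR adjusted p 0.452). The groups did not overlap for Ccr3, as in 16.3% of all genes in either direction. Over all libraries Prg2 had 0 to 26, Siglecf 1 to 16 and Il5ra 1 to 13.6 estimated counts. Of 10 leukocyte markers 7 are in the table, and they summed to 23.9 to 28.8 CPM in DdblGata1 and 20.0 to 47.5 CPM in wild-type libraries. Wild-type replicate 1 stood apart in 8 epithelial markers, with 681 CPM against 119 to 173 CPM in the other 5 libraries. Separate animals are not stated in the labels, so p-values measure only the spread between these libraries, which may be technical. All 7 smooth muscle markers were lower by value in DdblGata1 libraries (median log2 fold change -0.73), 4 of them at an unadjusted edgeR p under 0.05. Over all genes 4.23% were lower and 6.03% higher at that p. All 8 epithelial markers (median -0.97, 0 at that p) and 5 of 7 leukocyte markers (median -0.83, 1 at that p) were also lower by value. The epithelial direction rests on wild-type replicate 1. The epithelial sums of wild-type replicates 3 and 4, 132 and 119 CPM, were below those of all DdblGata1 libraries (136 to 173 CPM). All 4 mesothelial markers were higher by value (median 0.31, 1 at that p). The summed levels of these 4 lists overlapped between genotypes, and the part of these cells or of eosinophil RNA in the AP-1 values was not tested. In bulk RNA, fewer cells with a message and less message per cell cannot be told apart.

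Messages of 7 of the 8 measured AP-1 genes had higher values in DdblGata1 libraries, by 0.38 to 0.75 on the log2 scale, as did 49.3% of all genes by any amount. The exception was Jund, at -0.04. None passed the threshold when p-values were adjusted over all genes. With a threshold of 0.05 on the adjusted p, edgeR's quasi-likelihood test passed 0 of 15238 genes (0%) and DESeq2 passed 216 (1.51%), of which the higher ones were 0.998% of those it tested. Neither passed any of the 8. Taking the unadjusted p of edgeR under 0.05, 5 of the 8 were higher and 0 lower, set against 1564 genes (10.3%) in both directions, 919 higher (6.03%) and 645 lower (4.23%). In 5 of the 8 the groups did not overlap, with every DdblGata1 library above every wild-type library, as in 8.98% of all genes; groups stood apart in either direction in 16.3%. The median log2 fold change was 0.48 over the 8 genes and -0.0066 over all genes. Without DdblGata1 replicate 9 the count at an unadjusted p under 0.05 was 0 of 8 (6.56% of all genes in either direction). It was 3 without any 1 of wild-type replicates 1, 3 and 4 or of DdblGata1 replicate 10 (5.37 to 9.42% of all genes). Without DdblGata1 replicate 4 it was 5 (17.8% of all genes).

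**Figure D1:**
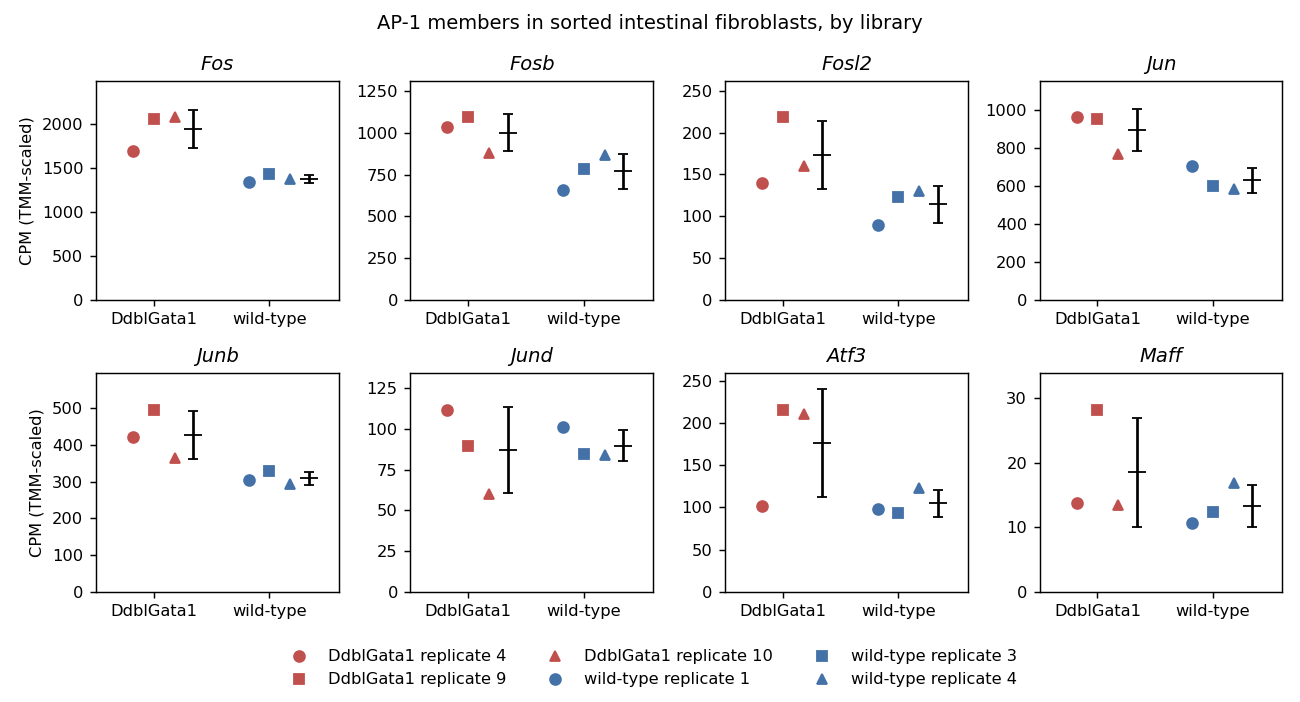
TMM-scaled CPM of the 8 measured AP-1 genes (vertical axes, each from 0) in the 3 DdblGata1 libraries (red, left) and the 3 wild-type libraries (blue, right). Each symbol is 1 library, and the black bar is the mean with its SD. Fos, Fosb, Fosl2, Jun and Junb separate the groups, while Jund, Atf3 and Maff overlap.

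Fos encodes the founding partner of Jun and was the most abundant of the 8. It lies on chromosome 12 of GRCm38, 85473890 to 85477273 (ENSMUSG00000021250). It had 1692, 2055 and 2071 CPM in DdblGata1 replicates 4, 9 and 10, and 1334, 1423 and 1370 CPM in wild-type replicates 1, 3 and 4. All 3 DdblGata1 libraries lay above the wild-type range, which was narrow, and replicate 4 was the closest to it. The mean was 1940 ± 214 CPM in DdblGata1 and 1376 ± 44.9 CPM in wild-type libraries (SD, n = 3 each). DdblGata1 minus wild-type, the fitted log2 difference was 0.50 ± 0.17 (SE), with an edgeR adjusted p of 0.441 (unadjusted 0.0177) and a DESeq2 adjusted p of 0.0711. That DESeq2 value was the lowest of any AP-1 gene. Without 1 library at a time the log2 fold change of Fos was 0.43 to 0.58.

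Fosb encodes a second Fos protein, and its message was present in amounts near those of Jun. It lies on chromosome 7, 19302696 to 19310051 (ENSMUSG00000003545). It had 1035, 1093 and 879 CPM in DdblGata1 replicates 4, 9 and 10, and 660, 784 and 865 CPM in wild-type replicates 1, 3 and 4. The groups did not overlap, but DdblGata1 replicate 10 and wild-type replicate 4 nearly met. The means were 1002 ± 111 and 770 ± 103 CPM (DdblGata1 and wild-type, SD, n = 3 each), and the log2 fold change was 0.38 ± 0.18 (SE; edgeR adjusted p 0.50, unadjusted 0.0622).

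Fosb is known to be spliced to a short form, ΔFosB, in which a stretch inside the last exon is removed. The loss shifts the reading frame to a stop, so the protein ends before the C-terminal transactivation part. In mouse brain ΔFosB is known as a long-lived protein. Of 7 Fosb transcripts in the index, Fosb-206 and Fosb-207 lack a stretch of 140 bases of the last exon, on chromosome 7 from 19305007 to 19305146. Fosb-201 codes for 338 amino acids and Fosb-206 for 237. The stretch that Fosb-201 keeps and Fosb-206 lacks, read 5′ to 3′ on the minus strand, begins with GT and ends with AG (capitals), the bases of a splice donor and acceptor. In the junction of Fosb-206 the capitals are the last and first pair of bases on either side, and the stop codon TGA starts directly after the join.
Fosb-201 stretch: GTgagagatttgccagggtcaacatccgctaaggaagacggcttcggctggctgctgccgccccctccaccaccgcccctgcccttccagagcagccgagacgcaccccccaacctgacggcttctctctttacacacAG
Fosb-206 junction: ggcccgctggccgAGTGaagttcaagtcct

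Both forms were present in every library. TPM values are scaled by transcript length and library, so they can be set side by side between transcripts. The full-length Fosb-201 had 336, 320 and 254 TPM in DdblGata1 replicates 4, 9 and 10, and 217, 207 and 254 TPM in wild-type replicates 1, 3 and 4. The short Fosb-206 had 100, 120 and 87.3 TPM in the DdblGata1 libraries and 35.0, 83.4 and 106 TPM in the wild-type libraries, in the same order of replicates. Of the protein-coding Fosb TPM, transcripts without the stretch made up 25.1 ± 2.14% in DdblGata1 and 24.0 ± 8.67% in wild-type libraries (SD, n = 3 each). The share overlapped between genotypes, and its lowest value was in wild-type replicate 1. In the other 5 libraries it was 22.9 to 29.6%. Fosb-206 is annotated over 1090 bases only, so its estimate rests on 685 to 2016 estimated counts. Fosb-201 spans 3782 bases. The longer form without the stretch, Fosb-207 (3523 bases), had 0 TPM in DdblGata1 and 0.34 to 2.41 TPM in wild-type libraries. Reads from short-form messages beyond the annotated end of Fosb-206 could be assigned to Fosb-201, so the share depends on the annotation.

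The intron-holding transcript Fosb-204, which is annotated as a single unspliced block over 2 introns, is the nearest these files come to a measure of unspliced Fosb RNA. Of its 3629 bases 2461 lie in introns of Fosb-201, so some of its estimate could come from reads of spliced forms. Fosb-204 had 41.5, 61.3 and 41.9 TPM in DdblGata1 replicates 4, 9 and 10, and 27.0, 28.1 and 23.3 TPM in wild-type replicates 1, 3 and 4. All DdblGata1 libraries were above all wild-type libraries, and replicate 9 was the highest. As a share of all Fosb TPM it was 8.67 to 12.2% in DdblGata1 and 6.01 to 9.59% in wild-type libraries, so the shares overlapped. No test was run on single transcripts. For Fos, the transcripts Fos-203 and Fos-204 include 244 and 105 bases from introns of the main form, and neither keeps a whole intron. Both overlapped between genotypes, with Fos-204 at 12.6, 393 and 320 TPM in DdblGata1 replicates 4, 9 and 10 and at 0, 180 and 48.7 TPM in wild-type replicates 1, 3 and 4. The coding form Fos-201 alone had 1551 to 1659 TPM in DdblGata1 and 1085 to 1211 TPM in wild-type libraries, without overlap.

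**Figure D2:**
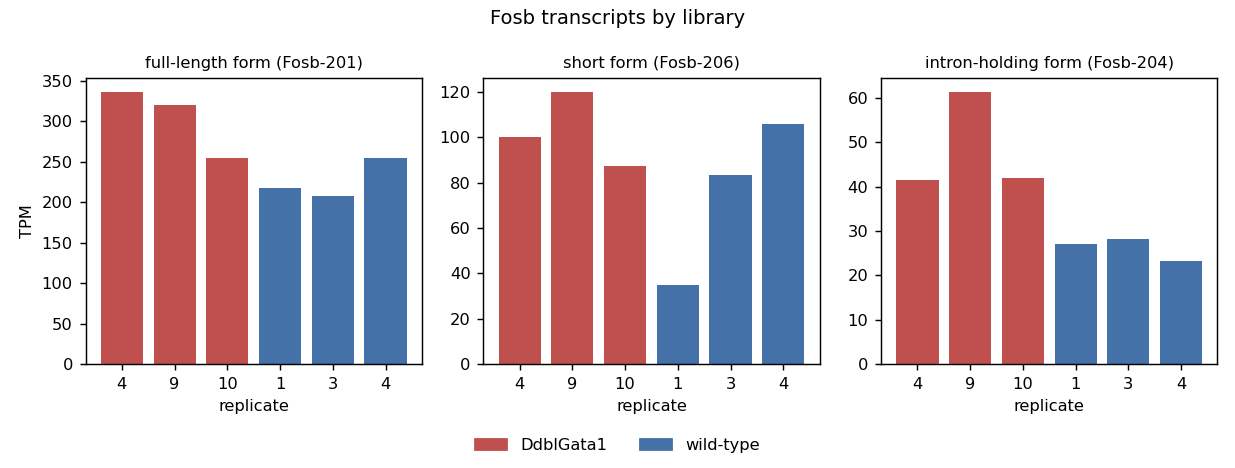
TPM of 3 Fosb transcripts (bars, each axis from 0) in the DdblGata1 libraries (red, left) and the wild-type libraries (blue, right), labelled by replicate. The intron-holding Fosb-204 is at 41.5 to 61.3 TPM in DdblGata1 and 23.3 to 28.1 TPM in wild-type libraries, whereas the short form Fosb-206 overlaps and is lowest, at 35.0 TPM, in wild-type replicate 1.

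Fosl2 encodes Fra-2, a Fos-related protein without the strong transactivation domain of Fos. It had 140, 218 and 160 CPM in DdblGata1 replicates 4, 9 and 10, and 88.9, 123 and 130 CPM in wild-type replicates 1, 3 and 4. The groups did not overlap, with replicate 9 the highest DdblGata1 and replicate 1 the lowest wild-type library. The log2 fold change was 0.60 ± 0.22 (SE; edgeR adjusted p 0.45, unadjusted 0.0232), and 0.38 without DdblGata1 replicate 9. Fosl1, which encodes Fra-1, had 3, 7 and 5 estimated counts in DdblGata1 replicates 4, 9 and 10 and 3, 5 and 6 in wild-type replicates 1, 3 and 4 in the transcript files. That is 0.0897 to 0.241 TPM over all libraries, too few counts to compare.

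Jun encodes c-Jun, the main partner of Fos. It had 960, 951 and 765 CPM in DdblGata1 replicates 4, 9 and 10, and 705, 600 and 584 CPM in wild-type replicates 1, 3 and 4. Here DdblGata1 replicate 4, which was the lowest DdblGata1 library for Fos, was the highest. The means were 892 ± 110 CPM in DdblGata1 and 630 ± 65.9 CPM in wild-type libraries (SD, n = 3 each). The log2 fold change was 0.50 ± 0.17 (SE; edgeR adjusted p 0.444, unadjusted 0.0183; DESeq2 adjusted p 0.118). Jun (ENSMUSG00000052684) lies on chromosome 4, 95049034 to 95052222.

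Junb encodes a Jun protein that activates less strongly than c-Jun and can hold it back. It had 422, 497 and 365 CPM in DdblGata1 replicates 4, 9 and 10, and 305, 329 and 293 CPM in wild-type replicates 1, 3 and 4. The groups did not overlap. The means were 428 ± 66.1 and 309 ± 18.6 CPM (DdblGata1 and wild-type, SD, n = 3 each), and the log2 fold change was 0.47 ± 0.16 (SE; edgeR adjusted p 0.444, unadjusted 0.02). Junb overlaps Prdx2 on the opposite strand, and Jun, Jund and Atf3 likewise overlap Junos, Gm11175 and Gm24748, which are not in the gene table. The library kit was stranded, but how the counting treated strand is not stated, so reads in these overlaps may belong to either gene.

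Jund encodes the Jun protein that is made steadily in resting cells and is little induced by stimuli. It had 112, 89.7 and 59.8 CPM in DdblGata1 replicates 4, 9 and 10, and 101, 84.5 and 83.9 CPM in wild-type replicates 1, 3 and 4. The DdblGata1 libraries spread on both sides of the wild-type range, with means of 87.1 ± 26.2 CPM in DdblGata1 and 89.7 ± 9.42 CPM in wild-type libraries (SD, n = 3 each). The log2 fold change was -0.04 ± 0.23 (SE; edgeR adjusted p 0.953). Its sign depended on the libraries, with 0.16 without DdblGata1 replicate 10 and -0.26 without DdblGata1 replicate 4. A p this high does not show that Jund was alike in both genotypes.

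Set against Jund in the same library, which needs no scaling between libraries, Jun was 4.69, 5.79 and 7.0 times as abundant in TPM in DdblGata1 replicates 4, 9 and 10. The ratio was 3.83, 3.88 and 3.80 in wild-type replicates 1, 3 and 4. The wild-type libraries were thus close to each other, and all DdblGata1 libraries were above them. The ratio of Fos to Jund was 24.5 ± 9.93 in DdblGata1 and 15.6 ± 1.95 in wild-type libraries (SD, n = 3 each), with overlap. Both ratios were highest in DdblGata1 replicate 10, where Jund was lowest. These ratios were chosen after the values were seen and were not tested.

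Atf3, a stress-induced factor that pairs with Jun proteins and often represses its targets, divided the DdblGata1 libraries. It had 102, 216 and 211 CPM in DdblGata1 replicates 4, 9 and 10, and 97.7, 93.2 and 123 CPM in wild-type replicates 1, 3 and 4. Replicate 4 lay inside the wild-type range, and replicates 9 and 10 lay far above it. The log2 fold change was 0.75 ± 0.28 (SE; edgeR adjusted p 0.461, unadjusted 0.0273), and it was 1.03 without DdblGata1 replicate 4 (edgeR adjusted p 0.176). With the 2 deposited surrogate variables as covariates it was 0.45 (edgeR adjusted p 0.524). Over the 18 alternatives its adjusted p ranged from 0.176 to 0.911.

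Maff, a small Maf protein that has no transactivation domain and forms dimers with other leucine zipper factors, was the scarcest of the 8. It had 13.8, 28.2 and 13.4 CPM in DdblGata1 replicates 4, 9 and 10, and 10.7, 12.3 and 16.9 CPM in wild-type replicates 1, 3 and 4. Only replicate 9 lay above the wild-type range. The log2 fold change of 0.47 ± 0.33 (SE; edgeR adjusted p 0.609) was 0.01 without that library. In replicate 9 the transcript Maff-202 had 18.3 TPM, against 0 to 1.75 TPM in the other 5 libraries.

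**Figure D3:**
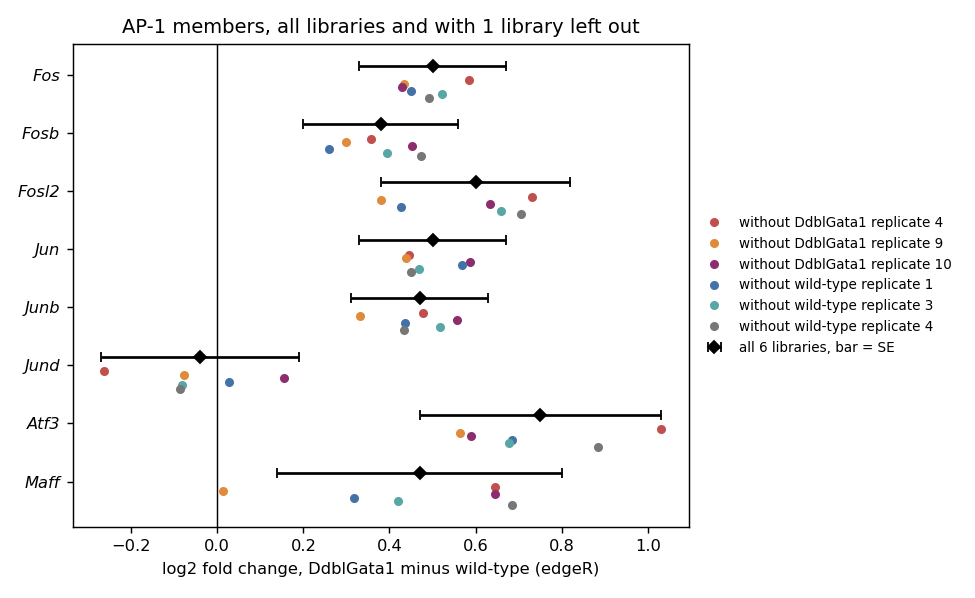
Log2 fold change, DdblGata1 minus wild-type, of the 8 AP-1 genes (horizontal axis) with all 6 libraries (black diamonds, bars are SE) and with 1 library left out (coloured points). Values of Fos, Fosb, Fosl2, Jun, Junb and Atf3 stay above 0, Jund lies on both sides of 0, and Maff is at 0.01 without DdblGata1 replicate 9.

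Summed over the 8 genes, the level was 3369, 3936 and 3421 TPM in DdblGata1 replicates 4, 9 and 10, and 2359, 2369 and 2553 TPM in wild-type replicates 1, 3 and 4. Fos made up 53.8 ± 3.91% of the sum in DdblGata1 and 53.2 ± 0.892% in wild-type libraries (SD, n = 3 each). Fosb held 12.8 ± 1.46% and 13.6 ± 1.61%, Jun 13.5 ± 1.99% and 13.2 ± 1.66%, and Junb 10.5 ± 1.24% and 10.6 ± 0.585% (DdblGata1 before wild-type). The TPM of the Fos proteins, Fos, Fosb and Fosl2, was 2.61 ± 0.491 times that of Jun, Junb and Jund in DdblGata1 and 2.51 ± 0.27 times in wild-type libraries. In DdblGata1 libraries the shares of Jund (2.42 ± 0.842%), Atf3 (5.41 ± 1.73%) and Maff (0.504 ± 0.189%) varied most relative to their means. Jund made up 1.66 to 3.33% in DdblGata1 and 3.19 to 3.94% in wild-type libraries, and Atf3 3.43 to 6.63% and 3.97 to 5.26% (DdblGata1 before wild-type). Each gene's share overlapped between genotypes. Shares of a sum move against each other, and none was tested.

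**Figure D4:**
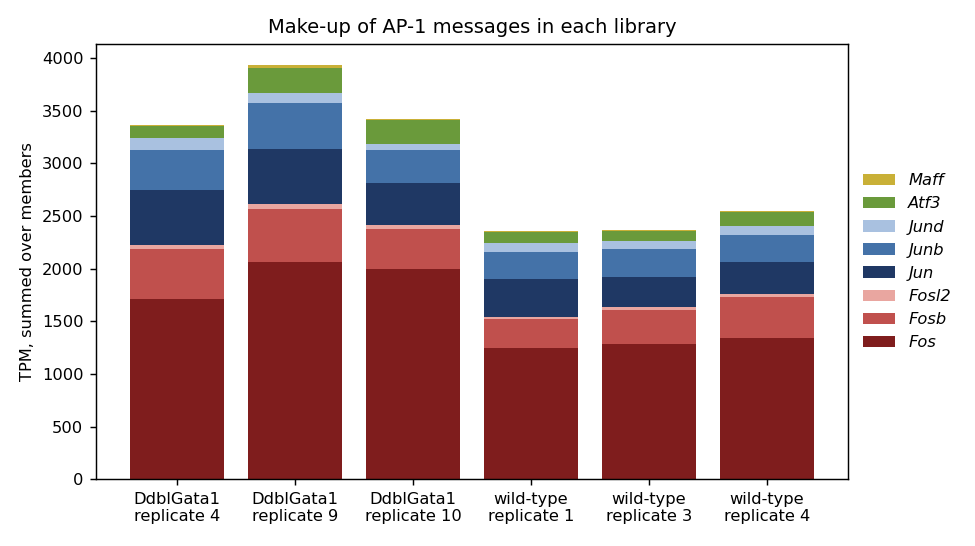
TPM of the 8 AP-1 genes stacked from 0 for each library, DdblGata1 on the left and wild-type on the right. The stacks reach 3369 to 3936 TPM in DdblGata1 and 2359 to 2553 TPM in wild-type libraries, and Fos fills the largest part of each.

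The order of mean TPM in DdblGata1 libraries was Fos (1923), Jun (480), Fosb (456), Junb (377), Atf3 (195), Jund (86.1), Fosl2 (39.1) and Maff (18.4). In wild-type libraries it was Fos (1290), Fosb (331), Jun (320), Junb (256), Atf3 (110), Jund (83.3), Fosl2 (24.4) and Maff (12.5). Jun and Fosb changed places, and their ranges overlapped within each genotype, so the exchange is within the spread. Fosb and Junb also overlapped in DdblGata1 libraries. The remaining neighbours in the order had separate ranges. By mean TPM Fos ranked 41st among all annotated genes in DdblGata1 and 94th in wild-type libraries.

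DdblGata1 replicate 9 held the highest value for 5 of the 8 genes and lay above the 6-library mean for all 8. Centred on each gene's mean, the average of the 8 was 0.10, 0.47 and 0.07 log2 units in DdblGata1 replicates 4, 9 and 10, and -0.30, -0.22 and -0.12 in wild-type replicates 1, 3 and 4. Wild-type replicate 1, which had the most epithelial marker RNA, held the lowest value for 4 of the 8. The share of counts from 12 mitochondrially encoded genes was 3.40, 3.96 and 4.76% in DdblGata1 replicates 4, 9 and 10 and 5.95, 5.92 and 4.11% in wild-type replicates 1, 3 and 4. The part of these in the AP-1 values was not tested. Without wild-type replicate 1 the median log2 fold change of the 8 was 0.43.

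Among 12986 other genes with a mean log2 CPM of at least 1, the closest to the average AP-1 profile over the 6 libraries was Ankrd49, an ankyrin repeat gene. Its root mean square difference from that profile was 0.053 log2 units. Adamts4, a protease of proteoglycans, and Slc10a7, a membrane transporter, followed at 0.067 each. Next were Med15, a subunit of the Mediator complex, at 0.069, the kinesin family member Kif2a at 0.076 and the adhesion molecule Icam1 at 0.083. Icam1 had 64.6, 97.7 and 69.5 CPM in DdblGata1 replicates 4, 9 and 10, and 54.7, 51.3 and 57.5 CPM in wild-type replicates 1, 3 and 4. Within the family, Junb (0.102) and Fosb (0.113) were closest to the average and Jund (0.393) and Atf3 (0.349) farthest. Each family gene is itself part of that average, so these distances are not comparable with those of the other genes. With so many genes and 6 libraries, close matches are numerous, and likeness here is a description.

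The promoters of Fos, Jun, Junb and Atf3 are shown as examples of early gene promoters, with the motifs that the search found in them. RefSeq windows of GRCm38.p6 gave 250 bases before the annotated start. For 6 of the 8 genes a window lay within 50 bases of the start of the most abundant transcript, and for Fosl2 and Jund none did. Capitals mark TGACG, the core of the cAMP response element (CRE), the full element TGACGTCA, the AP-1 site TGANTCA, the variant TGACATCA, TATAAA and the CArG box bound by serum response factor, each searched on both strands.
Fos, chr12:85473640-85473889, plus strand: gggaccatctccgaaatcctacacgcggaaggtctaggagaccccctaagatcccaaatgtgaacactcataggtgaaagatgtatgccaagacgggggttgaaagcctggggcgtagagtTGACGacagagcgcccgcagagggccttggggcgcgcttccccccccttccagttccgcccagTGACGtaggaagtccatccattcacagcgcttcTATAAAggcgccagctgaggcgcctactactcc
Jun, chr4:95052223-95052472, minus strand: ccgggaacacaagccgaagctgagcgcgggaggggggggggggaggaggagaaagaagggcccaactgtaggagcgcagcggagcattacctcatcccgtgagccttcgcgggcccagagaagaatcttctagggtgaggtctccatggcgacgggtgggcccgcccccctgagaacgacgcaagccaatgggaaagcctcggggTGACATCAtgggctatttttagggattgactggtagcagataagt
Junb, chr8:84978749-84978998, minus strand: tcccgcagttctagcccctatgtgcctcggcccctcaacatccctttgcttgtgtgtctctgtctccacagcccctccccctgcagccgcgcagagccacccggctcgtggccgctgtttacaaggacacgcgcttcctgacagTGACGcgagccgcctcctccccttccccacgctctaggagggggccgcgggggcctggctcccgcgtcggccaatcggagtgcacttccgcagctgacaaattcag
Atf3, chr1:191183334-191183583, minus strand: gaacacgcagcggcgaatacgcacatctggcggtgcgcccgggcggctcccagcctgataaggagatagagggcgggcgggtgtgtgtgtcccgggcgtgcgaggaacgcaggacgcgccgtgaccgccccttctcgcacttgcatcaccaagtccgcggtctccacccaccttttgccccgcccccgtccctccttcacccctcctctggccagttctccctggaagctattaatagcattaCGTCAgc

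TGACG occurred in 5 of the 6 windows (Fos, Fosb, Junb, Atf3 and Maff) and in 17.8% of 32851 mouse windows of the same length. In Fos it began 66 and 129 bases before the start, the nearer of them at the place of the known CRE of this gene. The full element TGACGTCA, which contains TGACG, was found in Maff alone and in 1.55% of all windows. TGACATCA, the site through which c-Jun is known to act on its own gene, began 45 bases before the start of Jun and occurred in 2.93% of all windows. TGANTCA was found in 0 of the 6 windows (6.75% of all), and the CArG box in 0 of the 6 (1.47% of all). The known serum response element of Fos lies farther upstream than this window reaches, so the search could not find it. A match is a description of the letters and says nothing of binding in these cells.

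AU-rich elements of the 3′ untranslated region, through which Zfp36 and related proteins shorten the life of early gene messages, were counted in the most abundant coding transcript. The pentamer ATTTA occurred in all 8 genes and in 67.1% of 13909 genes with such a region. Fos had 4.91 per 1000 bases, more than 92.8% of genes, and Junb 4.12, Maff 3.28 and Jun 3.24, against a median of 1.28. Fosb had 0.466, less than most genes. The nonamer TTATTTATT (capitals), which contains the pentamer, was found in Fos, Fosl2 and Maff, and in 7.38% of all genes.
Fos element: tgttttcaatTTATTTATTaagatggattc
Fosl2 element: atttattttaTTATTTATTttaaatgttta
Maff element: ttccacactcTTATTTATTgcacgaatcta

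Of 22 measured regulators of AP-1 turnover 14 were higher by value (49.3% of all genes were), with a median log2 fold change of 0.07. At an unadjusted edgeR p under 0.05, 4 were higher and 0 lower, against 6.03% and 4.23% of all genes. The named genes of this and the following lists that DESeq2 called had edgeR adjusted p-values of 0.384 to 0.392. Zfp36 itself, which binds such elements, had 584, 914 and 732 CPM in DdblGata1 replicates 4, 9 and 10, and 365, 358 and 415 CPM in wild-type replicates 1, 3 and 4. Its log2 fold change of 0.97 ± 0.20 (SE) had an edgeR adjusted p of 0.384, and DESeq2 called it (adjusted p 0.00184). Dusp1, a phosphatase that switches off MAP kinases, had 388 ± 61.0 and 278 ± 29.1 CPM (DdblGata1 and wild-type, SD, n = 3 each), with an edgeR adjusted p of 0.452. Cop1, a ubiquitin ligase subunit that degrades Jun, and Cnot6, a deadenylase subunit, had log2 fold changes of 0.43 ± 0.17 and 0.38 ± 0.16 (SE; edgeR adjusted p 0.478 and 0.483).

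Of 26 genes of the MAP kinase cascades 18 were higher by value, the median was 0.06, and 3 were higher and 0 lower at an unadjusted p under 0.05 (6.03% and 4.23% of all genes). Map3k8, a kinase of inflammatory signalling, had 8.76, 22.0 and 23.7 CPM in DdblGata1 replicates 4, 9 and 10, and 5.98, 9.41 and 6.90 CPM in wild-type replicates 1, 3 and 4 (edgeR adjusted p 0.407). As for Atf3, replicates 9 and 10 lay above the wild-type range and replicate 4 within it. Rps6ka3, which encodes the kinase RSK2, had a log2 fold change of 0.70 ± 0.23, Map3k1 of 0.49 ± 0.17 and Mapk10, a Jun N-terminal kinase, of 1.08 ± 0.48 (SE). Their edgeR adjusted p-values were 0.436, 0.45 and 0.486, in that order, and Mapk10 overlapped between genotypes.

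Among 13 factors that bind or activate the Fos promoter 9 were higher by value, with a median of 0.07, and 1 was higher and 1 lower at an unadjusted p under 0.05 (6.03% and 4.23% of all genes). Srf, the serum response factor that is known to drive Fos with Elk partners, went the other way from Fos. It had 48.1, 43.6 and 35.0 CPM in DdblGata1 replicates 4, 9 and 10, and 85.4, 67.2 and 66.8 CPM in wild-type replicates 1, 3 and 4, and DESeq2 called it lower (log2 fold change in edgeR -0.79 ± 0.18, SE; edgeR adjusted p 0.384; DESeq2 adjusted p 0.0143). The coactivator Ep300 had 80.6, 97.1 and 113 CPM in DdblGata1 replicates 4, 9 and 10, and 55.7, 71.8 and 74.4 CPM in wild-type replicates 1, 3 and 4. Crebbp and Elk4 had log2 fold changes of 0.60 ± 0.33 and 0.17 ± 0.13 (SE), and Crebbp overlapped between genotypes. The edgeR adjusted p-values of Ep300, Crebbp and Elk4 were 0.444, 0.54 and 0.636, in that order.

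Of 24 other leucine zipper factors related to AP-1, 19 were higher by value, with a median of 0.18, and 3 were higher and 0 lower at an unadjusted p under 0.05 (6.03% and 4.23% of all genes). DESeq2 called 2 of them higher (0.998% of all genes). Cebpd, a C/EBP factor of acute phase responses, had 37.2, 56.6 and 69.0 CPM in DdblGata1 replicates 4, 9 and 10, and 22.8, 30.1 and 23.9 CPM in wild-type replicates 1, 3 and 4 (edgeR adjusted p 0.384; DESeq2 adjusted p 0.0117). Maf, a large Maf protein that, unlike Maff, activates transcription, had 114, 133 and 196 CPM in the DdblGata1 libraries and 75.9, 83.0 and 79.2 CPM in the wild-type libraries (edgeR adjusted p 0.384; DESeq2 adjusted p 0.0192). Atf2, a partner of Jun, and Nfe2l2, the antioxidant factor that pairs with small Maf proteins, had log2 fold changes of 0.42 ± 0.17 and 0.32 ± 0.14 (SE). Their edgeR adjusted p-values were 0.481 and 0.486.

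Known AP-1 target genes divided, with 19 of 34 measured higher by value and 15 lower and a median of 0.09. By the unadjusted edgeR p (under 0.05), 10 were higher and 1 lower (6.03% and 4.23% of all genes), and DESeq2 called 6 higher and 0 lower (0.998% of all genes higher). The 4 with the smallest p were cytokines or chemokines, which other pathways control as well. Il6 had 9.13, 38.8 and 36.5 CPM in DdblGata1 replicates 4, 9 and 10, and 7.17, 7.52 and 6.58 CPM in wild-type replicates 1, 3 and 4. Its log2 fold change of 1.99 ± 0.48 (SE) had an edgeR adjusted p of 0.384 and a DESeq2 adjusted p of 0.0045. Replicate 4 was again the DdblGata1 library nearest to wild-type. Lif, a cytokine of the same family, had 9.75 ± 1.08 CPM in DdblGata1 and 4.69 ± 0.896 CPM in wild-type libraries (SD, n = 3 each). The chemokines Cxcl1 and Ccl2 had log2 fold changes of 1.68 ± 0.39 and 1.76 ± 0.40 (SE). For Lif, Cxcl1 and Ccl2 the edgeR adjusted p was 0.384 each.

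Other early genes that dissociation is known to induce were higher by value in 27 of 31 cases, with a median of 0.43, close to that of the AP-1 genes. With an unadjusted edgeR p under 0.05, 13 were higher and 1 lower (6.03% and 4.23% of all genes), and DESeq2 called 6 higher (0.998% of all genes). The 4 with the smallest p were Socs3, a feedback inhibitor of cytokine signalling (log2 fold change 0.70 ± 0.16), the zinc finger factor Klf6 (0.65 ± 0.15), and Nfkbia and Nfkbiz, feedback regulators of NF-kB (0.99 ± 0.25 and 1.01 ± 0.28, all SE). Their edgeR adjusted p-values were 0.384 to 0.392. Socs3 had 370, 332 and 299 CPM in DdblGata1 replicates 4, 9 and 10, and 178, 212 and 224 CPM in wild-type replicates 1, 3 and 4, so for this gene replicate 4 was the highest. The AP-1 genes and these early genes share libraries and preparation, and neither list is independent evidence on the other.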

How the data were processed

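Per the submitters' processing notes, bcl2fastq 2.2, kallisto, R 4.2.2 and DESeq2 were used against mm10 and GRCm38.p6. Their roles are not stated. The deposited gene table gives whole-number estimated counts per gene (an expected count made by the authors). Of its values 99.7% equalled length-scaled TPM within 1% plus 1 count, so they inherit the split of reads between transcripts. Its genes all reach 10 counts in 3 or more libraries. The deposited transcript files give estimated counts, TPM and other values, namely lengths in bases. A sample sheet the authors deposited lists, per library, a size factor (a ratio) and 2 surrogate variables (each a score). Transcripts were assigned with GENCODE M21 (113580 of 115270).

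The genotype comparison used edgeR 4.0.16 under R 4.3.3 (TMM; filterByExpr, removing none; robust quasi-likelihood test, Benjamini-Hochberg over 15238 genes, threshold 0.05), without covariates. SE is the log2 fold change divided by the root of its F value. CPM are TMM-scaled. Alternatives were other scalings and filters, DESeq2 1.42.0, limma 3.58.1 (voom, and trend on log2(TPM + 1)), plain transcript sums, the surrogate variables, no robust prior and leaving out each library. The 9 genes and all lists were chosen with earlier results of these data known, so p-values adjusted over a list are not given. Of each list of related genes, up to 4 with the smallest p are named if their mean log2 CPM reaches 1, as are the 6 genes nearest in profile. Both tools were checked on simulated counts drawn with edgeR's own estimates of the spread, so the check does not weigh them evenly. In it both missed most of the smallest changes. DESeq2 recovered more of the true changes than edgeR and also made more false calls. A call by DESeq2 alone is therefore treated with caution.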

Additional observations from a re-analysis of the deposited data

How the results depend on the processing

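Across 18 alternatives the 8 log2 fold changes gave 144 values, of which 139 kept their direction and 0 passed an adjusted p of 0.05. The 5 that changed sign were all of Jund: 9.92e-05 by limma on log2(TPM + 1), 0.15 with the 2 surrogate variables, 0.155 when DdblGata1 replicate 10 was left out, 0.0272 when wild-type replicate 1 was, and 0.241 when both were, an alternative added after the data were seen; the cause was not tested. Without 1 library Jund ranged from -0.263 to 0.155. The count of AP-1 genes at an unadjusted p under 0.05 was 5 with all libraries (10.3% of all genes in either direction). Without 1 library it was 0 to 5 (5.37 to 17.8% of all genes), with 0 where DdblGata1 replicate 9 was left out (6.56%). It was 2 where wild-type replicate 1 was dropped together with DdblGata1 replicate 10 (5.62%). The fits that leave libraries out had fewer samples. By the other tools and settings the count was 4 to 6 (10.1 to 12.6% of all genes). Over all genes the count past the threshold was 0 in edgeR and 216 by DESeq2 (143 higher and 73 lower), and 0 to 1 without 1 library, the 1 being without DdblGata1 replicate 4; limma gave 0 by voom and 0 on log2(TPM + 1). No paired analysis was run because the labels state no pairing of libraries between the genotypes.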
